A study of Homo sapiens with 8 samples.

Results

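ZFX clone 5, a clone of human embryonic stem cells given extra copies of the ZFX locus, was compared with H9, the established parental line it came from. The question was which transcripts differ between this clone and its parent. The comparison used 4 of the 8 Illumina bead arrays of the study, 2 of clone 5 and 2 of H9. Its members are the probes with a detection p-value under 0.05 on at least 2 of these 4 arrays, which were 19950 of the 48802 probes on each array. Of these, 16077 probes were detected on all 4 arrays, 1699 on 3 and 1375 on 1 array of each line. Another 493 were detected on both clone 5 arrays and on neither H9 array, and 306 on both H9 arrays and on neither clone 5 array. The kept probes represent 11688 of the 18852 genes that the array's annotation names by a single symbol, and 4604 kept probes have no single symbol.

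The clone 5 cells carry a bacterial artificial chromosome (BAC), a large cloned piece of genomic DNA, with the ZFX locus on it. They were isolated by drug resistance, and raised ZFX was checked by qRT-PCR. The other lines were ZFX clone 2, made in the same way, and clone 3, a wild-type clone of H9, with 2 arrays each. The H9 arrays are labelled only as embryonic stem cells, and nothing says that H9 passed through drug selection or through growth from 1 cell. Every line was kept under the usual conditions for human embryonic stem cells, and total RNA was labelled with biotin after a single amplification. Clone 5 is 1 clone, so extra ZFX, the remainder of the BAC, drug selection and cloning cannot be told apart in its difference from H9. The labels do not tell whether both arrays of a line stem from different cultures. The p-values therefore measure only the spread within lines, which may be technical.

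ZFX is a zinc finger transcription factor encoded on the X chromosome that binds near the starts of many genes and mostly activates them. In mouse embryonic stem cells its loss impairs self-renewal. Embryonic stem cells keep themselves undifferentiated through POU5F1, SOX2 and NANOG, while NODAL, BMP and Wnt signals can turn them toward the primitive streak, the structure from which mesoderm and endoderm arise. When those signals are held low, the cells tend toward neural fates.

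The sequence that ZFX binds has AGGCCT at its core, which reads the same on both strands. The promoter windows of ZFX itself and of the first 3 genes with this core among the largest rises in clone 5 are shown, to set the window of the raised gene beside those of genes that were higher in the same line. Each window runs from 250 bases before to 50 bases after the gene start, 5′ to 3′ on the gene's own strand, and comes from RefSeq (GRCh38.p14). AGGCCT is in capitals. ZFX lies at chrX:24148732-24149031 on the plus strand, CLC at chr19:39737980-39738279 on the minus strand, RAB17 at chr2:237590685-237590984 on the minus strand and MEGF10 at chr5:127290546-127290845 on the plus strand.
ZFX: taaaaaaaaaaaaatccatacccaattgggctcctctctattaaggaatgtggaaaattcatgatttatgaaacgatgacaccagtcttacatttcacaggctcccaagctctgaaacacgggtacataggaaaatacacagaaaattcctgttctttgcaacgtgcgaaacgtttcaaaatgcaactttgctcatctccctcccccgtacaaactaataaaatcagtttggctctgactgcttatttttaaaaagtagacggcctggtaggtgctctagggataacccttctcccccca
CLC: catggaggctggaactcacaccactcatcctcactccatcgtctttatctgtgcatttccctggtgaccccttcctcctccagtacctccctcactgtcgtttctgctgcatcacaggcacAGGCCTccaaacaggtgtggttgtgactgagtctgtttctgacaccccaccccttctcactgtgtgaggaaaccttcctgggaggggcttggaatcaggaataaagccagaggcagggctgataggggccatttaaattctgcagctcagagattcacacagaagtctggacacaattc
RAB17: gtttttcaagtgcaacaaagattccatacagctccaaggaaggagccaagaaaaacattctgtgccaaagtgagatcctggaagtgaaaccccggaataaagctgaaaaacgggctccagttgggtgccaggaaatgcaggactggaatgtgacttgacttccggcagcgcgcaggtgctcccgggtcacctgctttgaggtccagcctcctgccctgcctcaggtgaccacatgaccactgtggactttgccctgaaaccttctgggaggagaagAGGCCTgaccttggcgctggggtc
MEGF10: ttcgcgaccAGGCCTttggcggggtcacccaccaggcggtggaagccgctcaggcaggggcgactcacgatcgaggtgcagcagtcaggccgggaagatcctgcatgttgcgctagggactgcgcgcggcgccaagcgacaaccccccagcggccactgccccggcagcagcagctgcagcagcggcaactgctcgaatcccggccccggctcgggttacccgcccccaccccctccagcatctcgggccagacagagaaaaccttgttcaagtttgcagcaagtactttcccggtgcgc
The ZFX window holds no AGGCCT. Counted from the gene start, the core begins at -129 in CLC, at 27 in RAB17 and at -241 in MEGF10. Among the 12 largest falls it begins at -4 in NODAL and at -174 in ECHDC3. SEPTIN5 and RGS11 among the rises, and TSPAN18, SOCS2 and TAGLN among the falls, had no window, so the core could not be looked for. A promoter window was found for 9513 of the 11688 genes, and 10.6% of those windows hold the core, against 11% of all 27305 windows in the RefSeq table. Among genes higher in clone 5 the core was in 44 of 393 windows (11.2%), and among genes lower in clone 5 in 27 of 312 (8.65%). These letters are a description of the windows and do not show binding.

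ZFX was higher in clone 5 on its only kept probe, ILMN_1687484. The log2 intensities were 7.07 and 7.52 on the clone 5 arrays, against 6.06 and 5.99 on the H9 arrays. Both clone 5 arrays lay above both H9 arrays, and the clone 5 arrays differed from each other more than the H9 arrays did. ZFX averaged 7.30 ± 0.32 in clone 5 and 6.02 ± 0.05 in H9 (SD, n = 2 each), a log2 fold of 1.27 ± 0.14 (SE; 2.42-fold). Its adjusted p was 1.33e-06 by limma's moderated test, with Benjamini-Hochberg adjustment over all kept probes. ZFX clone 2 was at 7.55 and 7.64 and clone 3 at 6.26 and 6.12, so the arrays of both ZFX lines lay above those of both other lines, as their labels have it.

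Markers were read to check the labelled cell type. All 9 embryonic stem cell markers with a probe here, POU5F1, SOX2, NANOG, LIN28A, DNMT3B, L1TD1, SALL4, ZFP42 and PODXL, were detected on both arrays of both lines. Their summed linear intensity was 25781 and 24922 on the clone 5 arrays and 26722 and 26940 on the H9 arrays. Of 10 fibroblast markers, 4 were detected on both clone 5 arrays and 2 on both H9 arrays, and LUM, POSTN, FAP and PRRX1 were detected on no array. The endoderm markers SOX17, GATA4 and GATA6 and the trophoblast markers CDX2 and CGA were also detected on none. The same held for the germ cell marker DDX4 and the neuroectoderm markers SOX1, OTX1 and ZIC1. Other members of these groups were detected. Of 4 endoderm markers, 1 was detected on both arrays of each line. Of 4 neuroectoderm markers, 1 was detected on both H9 arrays and 0 on both clone 5 arrays. On both clone 5 arrays, 2 of 5 trophoblast markers with a probe and 1 of 3 germ cell markers were detected. On both H9 arrays, 0 of either group were. In these bulk samples, fewer cells of a type and less RNA per cell cannot be told apart.

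At an adjusted p under 0.05, 1224 probes (6.14%) differed between clone 5 and H9, of which 674 (3.38%) were higher and 550 (2.76%) lower in clone 5. Most of these differences were small. The median size of the called log2 folds was 0.493, and 62 called probes reached a 2-fold difference, 0.311% of all kept probes. Of these, 26 (0.13%) were higher and 36 (0.18%) lower. With 1 probe per gene, the one with the highest mean over the 4 arrays, 878 genes (7.51%) differed, 489 (4.18%) higher and 389 (3.33%) lower in clone 5. For comparison, the values of the 2 lines did not overlap for 47.3% of all kept probes and 50.4% of genes. Among the 878 genes, 268 were also called in each of the 4 fits that left out 1 array, and 185 under median scaling in place of quantile normalization. The number of called probes fell to 703 without H9 replicate 2, 660 without clone 5 replicate 1 and 692 without clone 5 replicate 2.

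**Figure D1:**
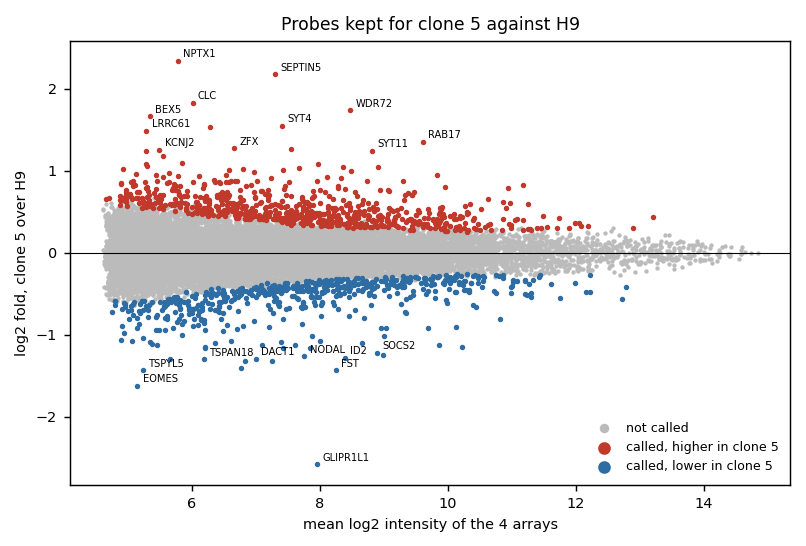
Each point is a kept probe (2 of the 19950, neither of them called, are not drawn), with its mean log2 intensity over the 4 arrays on the x axis and its log2 fold of clone 5 over H9 on the y axis. Red points are the 674 probes called higher and blue points the 550 called lower in clone 5; GLIPR1L1 is the lowest point, and NPTX1 and SEPTIN5 the highest, although the fitted fold of a gene detected in 1 line only, such as NPTX1, is not a bound.

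The largest rises among genes detected in both lines were those of SEPTIN5, CLC and WDR72. SEPTIN5, a septin of the cytoskeleton that is abundant at synapses, was at 8.31 and 8.46 in clone 5 and at 6.26 and 6.15 in H9. CLC, the galectin that forms Charcot-Leyden crystals in eosinophils, was at 6.97 and 6.88 in clone 5 and at 5.25 and 4.94 in H9. WDR72, a WD-repeat protein needed for enamel maturation, was at 9.37 and 9.30 in clone 5 and at 7.74 and 7.46 in H9. For each of these genes the lines were further apart than the arrays of a line. The log2 folds were 2.18 ± 0.11 for SEPTIN5 (SE; 4.53-fold; adjusted p = 7.75e-12), 1.83 ± 0.16 for CLC (3.55-fold; adjusted p = 2.77e-08) and 1.74 ± 0.11 for WDR72 (3.33-fold; adjusted p = 2.12e-10). A second SEPTIN5 probe did not pass, at a log2 fold of 0.27 (adjusted p = 0.484).

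SYT4 and SYT11, members of the synaptotagmin family of vesicle proteins, rose as well. SYT4 was at 8.18 and 8.16 in clone 5 and at 6.59 and 6.66 in H9, a log2 fold of 1.55 ± 0.11 (SE; adjusted p = 9.06e-10). SYT11 was at 9.46 and 9.40 in clone 5 and at 8.05 and 8.33 in H9, a log2 fold of 1.24 ± 0.10 (SE; adjusted p = 6.64e-09). RAB17, a small GTPase of membrane traffic in epithelial cells, whose window with AGGCCT is printed above, was at 10.27 and 10.30 in clone 5 and at 8.96 and 8.90 in H9. In each of these genes both clone 5 arrays lay above both H9 arrays, as their choice required. The log2 fold of RAB17 was 1.35 ± 0.09 (SE; adjusted p = 2.12e-10). MEGF10, a receptor for the engulfment of cell remnants, was at 8.51 on both clone 5 arrays and at 7.41 and 7.45 in H9, a log2 fold of 1.08 (adjusted p = 6.46e-07), and its second probe rose by 0.66 (adjusted p = 0.00391).

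The other rises of this group were dim in H9. KCNJ2, an inward-rectifier potassium channel, was at 6.18 and 6.04 in clone 5 and at 5.08 and 4.64 in H9, where 1 of the 2 arrays detected it. RGS11, a regulator of G protein signalling, was at 6.21 and 6.05 in clone 5 and at 4.90 and 5.01 in H9. SPTSSB, a small subunit of serine palmitoyltransferase, and GDA, guanine deaminase, were likewise detected on both clone 5 arrays and 1 H9 array. Their log2 folds were 1.25 for KCNJ2, 1.17 for RGS11, 1.09 for SPTSSB and 1.06 for GDA, with adjusted p of 3.86e-05, 3.4e-05, 0.00031 and 0.000226. Second probes of SPTSSB and GDA did not pass, at log2 folds of 0.10 and 0.09.

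Some genes were detected on both clone 5 arrays and on neither H9 array, so that H9 gives only a bound. The bound sets the clone 5 mean against the H9 mean of, on each array, the gene's own value or the dimmest detected probe, whichever was higher. A gene detected in 1 line only passed the filter through that line, so its direction was fixed by the filter, and the adjusted p beside a bound adds no support. NPTX1, a secreted neuronal pentraxin, was at 7.02 and 6.87 in clone 5, against 4.54 and 4.67 in H9, and was at least 4.36-fold higher in clone 5 (adjusted p = 5e-10). BEX5, of a family of small proteins expressed in brain, was at 6.15 and 6.18 in clone 5, against 4.60 and 4.41 in H9, and was at least 2.54-fold higher (adjusted p = 2.53e-07). The next bounds were at least 2.31-fold for LRRC61, 1.72-fold for PROM2, a prominin of plasma membrane protrusions, and 1.64-fold for PM20D2, a dipeptidase. PM20D2 was no longer called without H9 replicate 2 (adjusted p = 0.0563) or without clone 5 replicate 2 (adjusted p = 0.0757).

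The largest fall was that of GLIPR1L1, a member of a secreted protein family that is best known from the sperm surface. It was at 6.58 and 6.75 in clone 5 and at 9.24 and 9.25 in H9, a log2 fold of -2.58 ± 0.09 (SE; 5.99-fold lower; adjusted p = 1.91e-15). The H9 arrays gave nearly the same value, and both clone 5 arrays were far below them. FST, follistatin, a secreted protein that binds and blocks activin, was at 7.58 and 7.48 in clone 5 and at 8.93 and 8.99 in H9. Its log2 fold was -1.44 ± 0.09 (SE; adjusted p = 2.84e-10), and its second probe fell by 1.12 on the log2 scale.

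NODAL itself, a ligand of the TGF-beta family that patterns the primitive streak, was at 7.0 and 7.25 in clone 5 and at 8.45 and 8.33 in H9. ID2, an inhibitor of basic helix-loop-helix factors and a target of BMP signals, was at 7.66 and 7.84 in clone 5 and at 8.95 and 9.11 in H9. SOCS2, a suppressor of cytokine signalling, was at 8.36 and 8.21 in clone 5 and at 9.39 and 9.62 in H9. In all of these genes both clone 5 arrays lay below both H9 arrays, as their choice required. The log2 folds were -1.26 ± 0.10 for NODAL (SE; adjusted p = 9.05e-09), -1.28 ± 0.10 for ID2 (adjusted p = 5.1e-09) and -1.22 ± 0.09 for SOCS2 (adjusted p = 5.54e-09). Second probes of ID2 and SOCS2 fell by 1.08 and 1.32 on the log2 scale.

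The remaining large falls were in genes of several roles. TSPAN18, a tetraspanin of the cell membrane, fell by 1.30 on the log2 scale, and DACT1, which binds Dishevelled and modulates Wnt signals, fell by 1.29. SLIT2, a secreted guidance cue of axons, and PCDH11X, a protocadherin, fell by 1.16 and 1.15. TAGLN, transgelin, an actin-binding protein of smooth muscle, was at 9.59 and 9.69 in clone 5 and at 10.84 and 10.74 in H9, and fell by 1.15. TUBB2A, a beta tubulin, and ECHDC3, of the enoyl-CoA hydratase family, fell by 1.13 and 1.16. Every gene of these rises and falls that was detected in both lines kept its call under each alternative in which its probe was tested.

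**Figure D2:**
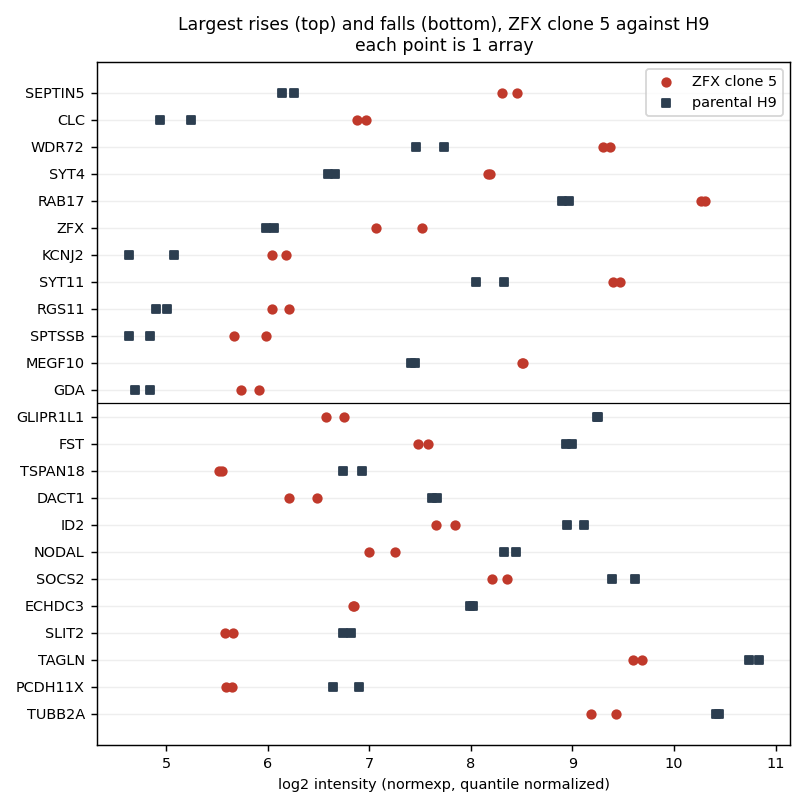
The log2 intensity on each of the 4 arrays is shown for the 12 largest rises and 12 largest falls among genes detected in both lines, with clone 5 as red circles and H9 as dark squares. For each gene the circles and squares do not overlap, as the choice of these genes requires; the widest gap is that of GLIPR1L1, at 6.58 and 6.75 in clone 5 against 9.24 and 9.25 in H9.

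The genes were then read in 45 lists of pathways, families and cell types, drawn up with earlier results of these data known. Of their 1165 genes, 893 were tested, 202 were detected on fewer than 2 of the 4 arrays, and the others were not analysed here. Of the tested genes 134 were called, to be read against the 7.51% of all genes.

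Of the 14 genes of the primitive streak list 7 were tested, 0 were higher and 4 lower in clone 5. EOMES, MIXL1 and FGF8 passed the filter on detection only through H9, so nothing is read from this count. Of the 4 members detected in both lines, 2 were lower, NODAL and WNT3, and the median log2 fold of those 4 was -0.485. EOMES, a T-box factor of the streak, was at 4.34 and 4.33 in clone 5, where it was not detected, and at 6.09 and 5.82 in H9, a bound of at least 2.23-fold lower (adjusted p = 4.92e-08). MIXL1, a homeobox factor of the streak, was at 4.39 and 4.40 in clone 5, undetected, and at 5.29 and 4.94 in H9, at least 1.25-fold lower (adjusted p = 0.00615). NODAL, described above, and WNT3, a Wnt ligand needed for streak formation in the mouse, were the other called members. WNT3 was at 6.29 and 5.72 in clone 5 and at 6.50 and 6.76 in H9, a log2 fold of -0.62 (adjusted p = 0.0105). Its call was lost without H9 replicate 2 (adjusted p = 0.131), without clone 5 replicate 2 (adjusted p = 0.252) and under median scaling (adjusted p = 0.178), and that of MIXL1 without H9 replicate 1 (adjusted p = 0.0916). TBXT, GSC and MESP1 were detected on none of the 4 arrays, and CER1 and FGF8, at log2 folds of -0.35 and -0.49, did not pass.

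Nodal and activin genes went in both directions. Of 18 tested, 2 were higher and 3 lower, with a median log2 fold of -0.0018. LEFTY2, an inhibitor of NODAL, rose by 0.41 (adjusted p = 0.00296), at 8.73 and 8.78 in clone 5 and 8.31 and 8.37 in H9. INHBE, an inhibin subunit, rose by 0.56 (adjusted p = 0.0428), and ACVR2B, a receptor for activin, fell by 0.68 (adjusted p = 0.0128). INHBE lost its call in each of the 4 fits that left out an array (adjusted p between 0.0748 and 0.266), and ACVR2B without H9 replicate 2 (adjusted p = 0.145) and without clone 5 replicate 2 (adjusted p = 0.181). Median scaling ended the calls of LEFTY2, INHBE and ACVR2B, at adjusted p of 0.571, 0.163 and 0.0756.

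In the BMP response list, 0 of 12 tested genes were higher and 3 were lower, all of the ID family, with a median log2 fold of -0.101. ID3 was at 10.41 and 10.60 in clone 5 and at 11.02 and 10.99 in H9, and ID1 at 9.47 and 9.44 in clone 5 and at 9.78 and 10.05 in H9. Both genes were lower in clone 5, by 0.50 and 0.46 on the log2 scale on average (adjusted p = 0.000336 and 0.00249). ID1 was no longer called without H9 replicate 2 (adjusted p = 0.0736), and neither passed under median scaling (adjusted p = 0.219 for ID3 and 0.427 for ID1). SMAD6, SMAD7 and BAMBI, also feedback targets of this pathway, did not pass, at log2 folds of 0.08, -0.16 and 0.00.

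Of 19 Wnt pathway genes tested, 1 was higher and 5 were lower, with a median log2 fold of -0.00764. Detected in both lines were 18 of them, with 1 higher and 4 lower. CCND1, cyclin D1, was at 11.05 and 11.07 in clone 5 and at 11.54 and 11.56 in H9, and fell by 0.50 (adjusted p = 0.00021). WLS, the carrier that brings Wnt proteins to the cell surface, was undetected in clone 5, at 4.61 and 4.69, and at 5.26 and 5.46 in H9, at least 1.48-fold lower (adjusted p = 0.00601). SP5, a direct Wnt target, was detected on 1 clone 5 array and fell by 0.63 (adjusted p = 0.00906). The call of WLS was lost without H9 replicate 2 (adjusted p = 0.0814) or clone 5 replicate 1 (adjusted p = 0.0592), and that of SP5 without clone 5 replicate 2 (adjusted p = 0.0808). Median scaling ended those of CCND1 (adjusted p = 0.151) and SP5 (adjusted p = 0.0952), and SP5 also did not pass in the authors' processed values (adjusted p = 0.081).

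The Notch and Groucho list had rises above all, with 7 of 27 tested genes higher and 2 lower and a median log2 fold of 0.142. TLE2, a Groucho co-repressor, was at 6.81 and 7.35 in clone 5 and at 5.83 and 6.32 in H9, a log2 fold of 1.01 ± 0.18 (SE; adjusted p = 0.000713). The 2 arrays of each line stood well apart in TLE2, and the lines did not overlap, which held for 50.4% of all genes. HES5, a Notch target of neural progenitors, was at 6.89 and 6.80 in clone 5 and at 6.14 and 6.19 in H9, and rose by 0.68 (adjusted p = 0.00213). HES4, of the same family, and TLE5, a short Groucho protein, rose by 0.65 and 0.54 (adjusted p = 0.00183 and 0.000685). Median scaling ended both calls (adjusted p = 0.0837 and 0.28). Under it, 2 of the 7 rises and 0 of the 2 falls of the list were still called. Of the 7 rises 4 were called in all fits that left out an array, as were 0 of the 2 falls.

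**Figure D3:**
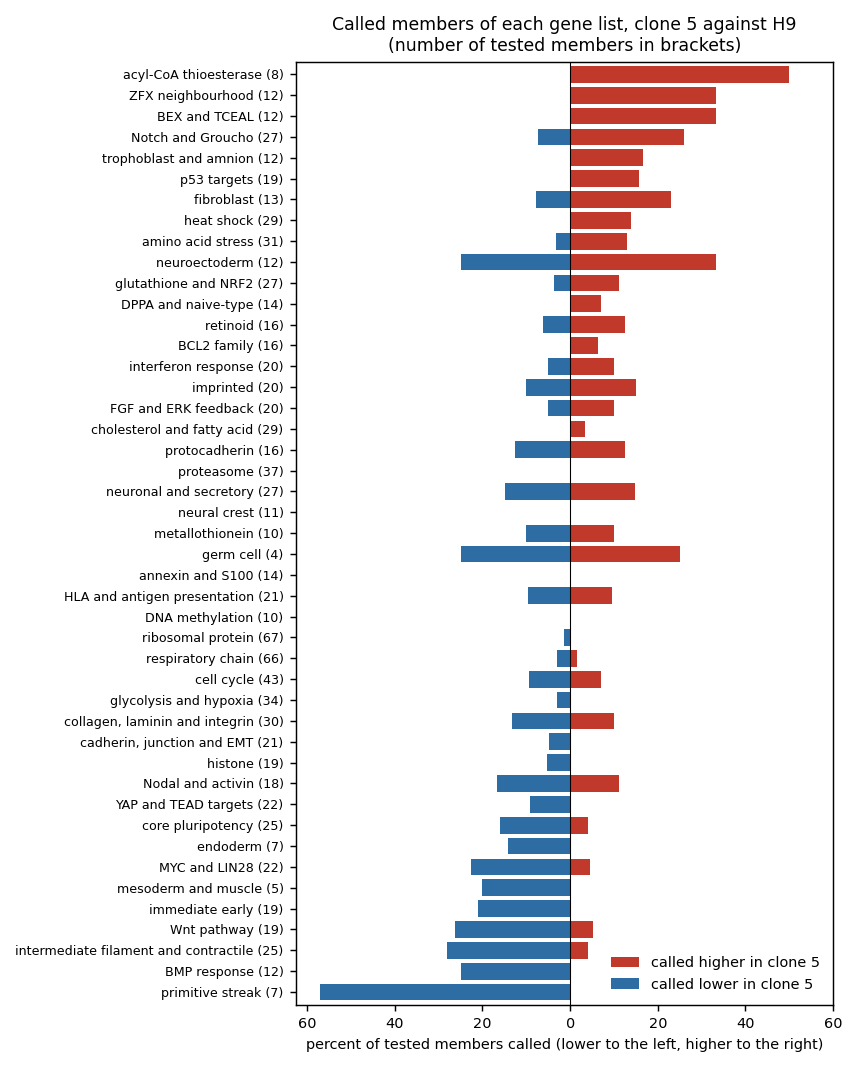
For each gene list, with its number of tested genes in brackets, bars to the right give the percent of tested members called higher and bars to the left the percent called lower in clone 5 than in H9. Lists are ordered by the percent higher minus the percent lower: acyl-CoA thioesterases are at the top with 50% higher, and the primitive streak at the bottom with 57.1% lower, 2 of its 4 called genes being detected in H9 only; over all genes 4.18% were higher and 3.33% lower.

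Neural genes moved both ways. Of 12 neuroectoderm genes tested, 4 were higher and 3 lower, with a median log2 fold of -0.133. HESX1, a homeobox factor of the anterior neural plate, was at 8.38 and 8.13 in clone 5 and at 7.43 and 7.70 in H9, a log2 fold of 0.69 (adjusted p = 0.000497). TUBB3, a neuronal beta tubulin, was at 11.58 and 11.52 in clone 5 and at 10.96 and 10.97 in H9, a log2 fold of 0.59 (adjusted p = 1.72e-05). DLK1, a non-canonical Notch ligand expressed from the paternal allele, was at 5.45 and 5.03 in clone 5 and at 6.24 and 6.08 in H9, and fell by 0.92 (adjusted p = 0.00205). DLK1 lost its call without clone 5 replicate 2 (adjusted p = 0.06), and HESX1 and TUBB3 under median scaling (adjusted p = 0.0801 and 0.122). DLK1 has a second probe that did not pass, at 0.02. Of 27 neuronal and secretory genes tested, 4 were higher and 4 lower, and of the 23 detected in both lines 3 were higher and 3 lower. GAD1, which makes the transmitter GABA, was undetected in clone 5, at 4.39 and 4.51, against 5.41 and 5.45 in H9, and was at least 1.55-fold lower (adjusted p = 0.000131).

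Among genes of the actin cytoskeleton and of intermediate filaments, 1 of 25 tested was higher, 7 were lower and the others did not pass, with a median log2 fold of -0.0885. VIM, vimentin, was at 8.40 and 8.56 in clone 5 and at 9.45 and 9.56 in H9, a log2 fold of -1.02 ± 0.09 (SE; adjusted p = 3.8e-08), and its second probe fell by 1.17. ACTC1, cardiac actin, was at 6.89 and 6.79 in clone 5 and at 8.02 and 7.84 in H9, a log2 fold of -1.09 ± 0.11 (SE; adjusted p = 3.71e-07). TAGLN is described above, and ACTA1, skeletal actin, was at 9.08 and 8.88 in clone 5 and at 9.84 and 9.59 in H9, a log2 fold of -0.73 (adjusted p = 1.28e-05). In all of these genes both clone 5 arrays lay below both H9 arrays. Over all genes the lines did not overlap for 50.4%. The calls of VIM, ACTC1, TAGLN and ACTA1 held in each fit that left out an array and under median scaling. PRPH, peripherin, a neuronal intermediate filament, was the 1 rise, by 0.85 (adjusted p = 0.00183), and lost its call without H9 replicate 2 (adjusted p = 0.0558). The fibroblast list, which also holds VIM, had 3 of 13 tested genes higher and 1 lower, or 2 and 1 of the 12 detected in both lines. Its rises were COL5A2, TWIST2, undetected in H9 and lost without H9 replicate 2 (adjusted p = 0.0953) or clone 5 replicate 2 (adjusted p = 0.143), and FBLN1, lost without H9 replicate 1 (adjusted p = 0.127) or either clone 5 replicate (adjusted p = 0.118 and 0.069). The part of other cell types in these falls was not tested beyond the marker values above.

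Extracellular matrix genes were also divided, with 3 of 30 tested higher and 4 lower. LAMB1, a laminin chain, was at 5.79 and 5.68 in clone 5 and at 6.71 and 6.65 in H9, and fell by 0.95 (adjusted p = 0.00011), although its second probe did not pass, at -0.45. COL4A6 and COL4A5, neighbouring genes of basement membrane collagen on the X chromosome, fell by 0.93 and 0.43 (adjusted p = 3.38e-05 and 0.00294). COL5A2, a fibrillar collagen, rose by 0.48 (adjusted p = 0.00321). Median scaling ended the calls of COL4A5 and COL5A2 (adjusted p = 0.538 and 0.443).

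Of 25 core pluripotency genes tested, 1 was higher and 4 lower, with a median log2 fold of -0.0298. POU5F1, SOX2 and NANOG did not pass, at log2 folds of -0.20 ± 0.08, -0.03 ± 0.11 and -0.06 ± 0.09 (SE). PRDM14 and SALL4, transcription factors of the pluripotent state, fell by 0.45 and 0.35 (adjusted p = 0.0129 and 0.00665). These calls were lost in single left-out fits, PRDM14 without H9 replicate 2 (adjusted p = 0.182) or clone 5 replicate 1 (adjusted p = 0.142), and SALL4 without H9 replicate 1 (adjusted p = 0.0535) or clone 5 replicate 2 (adjusted p = 0.0622). Median scaling ended both (adjusted p = 0.487 and 0.564). DPPA2, a chromatin protein of early embryonic cells, rose by 0.61 (adjusted p = 0.00348), and not without clone 5 replicate 1 (adjusted p = 0.0552) or under median scaling (adjusted p = 0.121).

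Of 22 tested genes of the MYC and LIN28 list 1 was higher and 5 were lower, with a median log2 fold of -0.168. MYCN was at 10.78 and 10.71 in clone 5 and at 11.18 and 11.29 in H9, and MYC at 9.49 and 9.65 in clone 5 and at 10.13 and 9.95 in H9. MYCN fell by 0.49 and MYC by 0.47 (adjusted p = 0.000348 and 0.00224). NOP56, a nucleolar protein of ribosome assembly, fell by 0.51 (adjusted p = 0.000211), while MXD4, a MAX partner that opposes MYC, rose by 0.47 (adjusted p = 0.0031). All of the 5 falls kept their calls in the fits that left out an array and none under median scaling, and MXD4 lost its call without clone 5 replicate 2 (adjusted p = 0.0701) and under median scaling (adjusted p = 0.445). A second probe of MYC and 2 further probes of NOP56 did not pass, at log2 folds of -0.15 for MYC and -0.19 and 0.18 for NOP56. Of 67 ribosomal protein genes tested, 1 was called, RPL34, at a log2 fold of -0.38, and not without H9 replicate 1 (adjusted p = 0.0531), without clone 5 replicate 2 (adjusted p = 0.108) or under median scaling (adjusted p = 0.424).

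Immediate early genes had 0 of 19 tested members higher and 4 lower, all of them called in each fit that left out an array. JUN, a subunit of the AP-1 factor, was at 8.13 and 8.28 in clone 5 and at 8.71 and 9.08 in H9, and fell by 0.69 (adjusted p = 0.000264). CCN1 and CCN2, secreted matrix proteins and targets of YAP, fell by 0.64 and 0.54 (adjusted p = 1.64e-05 and 0.000327), and the fourth was MYC. None of the 4 passed under median scaling, where JUN, CCN1 and CCN2 had adjusted p of 0.0794, 0.0787 and 0.102.

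Some smaller families had called rises and no called falls. Of 12 BEX and TCEAL genes tested, which lie together on the X chromosome, 4 were called higher and 0 lower. Over all genes 4.18% were called higher. Of the 11 detected in both lines 3 were called higher. The median log2 fold of the 12 was 0.0893, with 8 folds above 0 and 4 below. TCEAL4 was at 11.34 and 11.33 in clone 5 and at 10.55 on both H9 arrays, a log2 fold of 0.79 (adjusted p = 2.27e-07), while its second probe was at -0.01. TCEAL3 rose by 0.71 (adjusted p = 1.87e-05) and by 0.81 on a second probe, and BEX5 is given above. BEX1 rose by 0.40 (adjusted p = 0.00376), while its second probe did not pass, at 0.12 (adjusted p = 0.524). BEX1 lost its call without H9 replicate 1 (adjusted p = 0.0664), without clone 5 replicate 1 (adjusted p = 0.0542) and under median scaling (adjusted p = 0.571).

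Of 8 acyl-CoA thioesterases tested, enzymes that free fatty acids from coenzyme A, 4 were higher and 0 lower, with a median log2 fold of 0.405. ACOT1 was at 6.06 and 5.72 in clone 5 and at 5.29 and 4.74 in H9, a log2 fold of 0.88 (adjusted p = 0.00486). ACOT2, its near-identical neighbour on chromosome 14, was at 6.28 and 6.47 in clone 5 and at 5.84 on both H9 arrays, a log2 fold of 0.53 (adjusted p = 0.0401), and probes of such close copies may share signal. ACOT9 and ACOT7 rose by 0.51 and 0.35. The lines did not overlap in any of these genes, which held for 50.4% of all genes. In every fit that left out an array, 0 of the 4 calls held. ACOT1 lost its call without H9 replicate 2 (adjusted p = 0.131) or clone 5 replicate 1 (adjusted p = 0.1), ACOT9 without H9 replicate 1 (adjusted p = 0.0872), ACOT7 without H9 replicate 2 (adjusted p = 0.0812) or clone 5 replicate 2 (adjusted p = 0.0533), and ACOT2 in each of the 4 fits (adjusted p from 0.079 to 0.261).

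The genes around ZFX on the X chromosome were read as well. The ends of the BAC are not given in the sources used here, so whether it holds any of them was not tested. Of 12 tested genes of this neighbourhood, ZFX included, 4 were higher and 0 lower, with a median log2 fold of 0.0969. ACOT9 was at 9.05 and 9.13 in clone 5 and at 8.39 and 8.77 in H9, and PRDX4, a peroxiredoxin, at 11.94 on both clone 5 arrays and at 11.51 and 11.54 in H9. SAT1, which acetylates spermidine and spermine, was at 10.08 and 10.09 in clone 5 and at 9.82 and 9.83 in H9, a log2 fold of 0.26 (adjusted p = 0.0472). ACOT9 and PRDX4 rose by 0.51 and 0.42 (adjusted p = 0.00389 and 0.00163). The genes closest to ZFX among those tested did not pass, with log2 folds of 0.03 for EIF2S3, 0.10 for KLHL15 and -0.04 for APOO. SAT1 was called in none of the 4 fits that left out an array (adjusted p from 0.116 to 0.165), ACOT9 was lost without H9 replicate 1 (adjusted p = 0.0872), and under median scaling ZFX was the only one of the 4 still called.

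Among the other lists, calls in the stress and immune genes went both ways. Of 31 amino acid stress genes tested, 4 were higher and 1 lower. Of 20 interferon response genes, 2 were higher and 1 lower. Over all genes 4.18% were called higher and 3.33% lower. DDIT4, an inhibitor of mTORC1 induced by stress, was at 9.17 on both clone 5 arrays and at 8.34 and 8.26 in H9, a log2 fold of 0.87 (adjusted p = 8.59e-07). ADM, adrenomedullin, a target of hypoxia, was at 9.73 and 9.60 in clone 5 and at 10.62 and 10.52 in H9, a log2 fold of -0.91 (adjusted p = 9.52e-08), and was the only one called of 34 glycolysis and hypoxia genes. MX1, an interferon-induced GTPase, was at 7.04 and 6.97 in clone 5 and at 6.19 and 6.08 in H9, a log2 fold of 0.87 (adjusted p = 0.000131). In all of these genes the 2 lines did not overlap, which held for 50.4% of all genes. HLA-DRA and HLA-DMB, of antigen presentation by class II molecules, rose by 0.88 and 0.86 (adjusted p = 0.000129 and 0.00386). In their list of 21 tested genes 2 were higher and 2 lower, the falls being HLA-B, a class I chain, by 0.45 and CALR, calreticulin, by 0.40 (adjusted p = 0.0129 and 0.0158). HLA-B and CALR lost their calls without H9 replicate 2 (adjusted p = 0.193 and 0.156), without clone 5 replicate 1 (adjusted p = 0.102 and 0.271) and under median scaling (adjusted p = 0.493 and 0.607). TFAP2C, a factor of trophoblast and germ cells, rose by 0.82 (adjusted p = 0.000193), and GABRP, a GABA receptor subunit found in amnion-like cells, by 0.75 (adjusted p = 0.00446). They were the 2 called genes of 12 tested in the trophoblast and amnion list, whose median log2 fold was 0.0318. In that list 7 folds were above 0 and 5 below. A second TFAP2C probe did not pass, at 0.28 (adjusted p = 0.193). Of 4 germ cell genes tested, TFAP2C was higher and KIT, the receptor for stem cell factor, was lower, by 0.38 on the log2 scale (adjusted p = 0.0235). KIT lost its call in each of the 4 fits that left out an array (adjusted p from 0.0638 to 0.125) and under median scaling (adjusted p = 0.654).

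The heat shock list had 4 of 29 tested genes higher and 0 lower, and 0 of these calls held in every fit that left out an array or under median scaling. The 4 were HSPA1A, HSPA2, HSPA12A and BAG3, with log2 folds of 0.60, 0.46, 0.44 and 0.38. Of 16 BCL2 family genes 1 was called, PMAIP1, which promotes cell death and rose by 0.65 (adjusted p = 0.000143; 0.101 under median scaling). Of 16 protocadherins 2 were higher and 2 lower. Of 20 genes of FGF and ERK feedback 2 were higher and 1 lower, and ETV5, a transcription factor downstream of FGF signals, rose by 0.72 (adjusted p = 8.76e-06), while its second probe did not pass, at 0.16.

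The large housekeeping groups are set against the 7.51% of all genes that were called. Of 66 respiratory chain genes tested, 1 was higher and 2 were lower (4.55%). Of 29 genes of cholesterol and fatty acid synthesis 1 was called (3.45%). Of 43 cell cycle genes 3 were higher and 4 lower, 16.3% against the 7.51% of all genes, with a median log2 fold of -0.00962. Of these 7 calls 2 held in every fit that left out an array and 0 under median scaling. CDK1, the mitotic kinase, rose by 0.40 (adjusted p = 0.00248; 0.586 under median scaling), and CCND1 fell as given above. Of 10 DNA methylation genes, 14 annexin and S100 genes and 11 neural crest genes, 0 were called by limma, as were 0 of 37 proteasome genes. At an unadjusted p under 0.05 the counts were 2 for DNA methylation, 5 for annexins and S100, 2 for neural crest and 6 for the proteasome. The members with the largest folds in these lists were DNMT3A at -0.31 (adjusted p = 0.286), ANXA3 at -0.56 (adjusted p = 0.0703; 0.0347 without clone 5 replicate 1) and SOX9 at 0.46 (adjusted p = 0.0776; 0.0375 in the authors' processed values), and in the proteasome PSMD11 at -0.33 (adjusted p = 0.26).

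Clone 5 was then set against clone 2, the other ZFX line, which tests whether their differences from H9 are of the same size. In this contrast 673 probes (3.37%) and 456 genes (3.9%) differed, of which 149 genes (1.27%) were higher and 307 (2.63%) lower in clone 5. ZFX differed by -0.30 on the log2 scale (95% interval -0.59 to -0.01; adjusted p = 0.274). None of the largest 3 rises passed in this contrast, with differences of 0.25 for SEPTIN5 (0.01 to 0.49; adjusted p = 0.262), 0.10 for CLC (-0.22 to 0.43; adjusted p = 0.79) and -0.16 for WDR72 (-0.38 to 0.07; adjusted p = 0.497). RAB17 was lower in clone 5 than in clone 2, by 0.32 (adjusted p = 0.0364). Among the falls, NODAL differed from clone 2 by -0.15 (-0.35 to 0.06; adjusted p = 0.499) and ID2 by 0.12 (-0.08 to 0.33; adjusted p = 0.573). Other large falls were lower in clone 5 than in clone 2 as well, GLIPR1L1 by 0.50, DACT1 by 0.68 and TUBB2A by 0.39 on the log2 scale (adjusted p = 0.00264, 0.00146 and 0.0128). A p that misses the threshold does not show that the lines act alike, and the intervals give what the arrays allow. The comparisons with H9 and with clone 2 use the same clone 5 arrays.

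Other genes separated clone 5 from clone 2. TSPYL5, a TSPY-like protein, was undetected in clone 5, at 4.45 and 4.57, and was at 6.09 and 6.07 in clone 2, at 5.78 and 5.92 in clone 3 and 6.05 and 5.84 in H9. Clone 5 was thus the only line without a detected signal of TSPYL5, at least 2.22-fold lower than H9 (adjusted p = 1.5e-06). The further bounds on falls against H9 were at least 1.75-fold for LRFN5, a synaptic adhesion protein, and 1.74-fold for ZNF667, a zinc finger protein. TSPAN18 was at 5.55 and 5.53 in clone 5, and between 6.66 and 7.02 on all 6 other arrays. TAGLN was at 9.59 and 9.69 in clone 5, 10.54 and 10.60 in clone 2, 11.67 and 11.74 in clone 3 and 10.84 and 10.74 in H9. In TSPAN18 and TAGLN both clone 5 arrays were below every other array, and clone 5 differed from clone 2 by -1.18 (-1.45 to -0.91; adjusted p = 8.06e-06) and by -0.93 (-1.10 to -0.77; adjusted p = 2.02e-07). ECHDC3 lay between, at 6.84 and 6.85 in clone 5, 5.70 and 5.66 in clone 2, and 8.0 and 8.02 in H9, a difference of 1.17 from clone 2 (0.94 to 1.40; adjusted p = 7.61e-07).

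Some immediate early and actin genes also differed between the ZFX lines, 5 of 19 in the immediate early list and 3 of 25 in the filament and contractile list. Over all genes 3.9% were called between clone 5 and clone 2. MYC and VIM did not pass in this contrast (adjusted p = 0.102 and 0.164). JUN was at 8.13 and 8.28 in clone 5, 9.01 and 8.85 in clone 2 and 8.71 and 9.08 in H9, and clone 5 differed from clone 2 by -0.73 (-0.96 to -0.50; adjusted p = 0.000449). CCN2 was at 11.13 and 10.93 in clone 5, 11.68 and 11.50 in clone 2 and 11.51 and 11.63 in H9, a difference of -0.56 from clone 2 (adjusted p = 0.000567). ACTA1 was at 9.08 and 8.88 in clone 5, 9.99 and 9.94 in clone 2 and 9.84 and 9.59 in H9. H4C3, a histone gene, was at 12.41 and 12.48 in clone 5, 13.07 and 13.10 in clone 2 and 13.03 and 12.98 in H9, and differed from clone 2 by -0.64 (adjusted p = 0.000127). In each of these genes both clone 5 arrays were the lower ones, and clone 2 was not shown to differ from H9 (adjusted p of 0.893 for JUN, 0.91 for CCN2, 0.0633 for ACTA1 and 0.609 for H4C3).

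**Figure D4:**
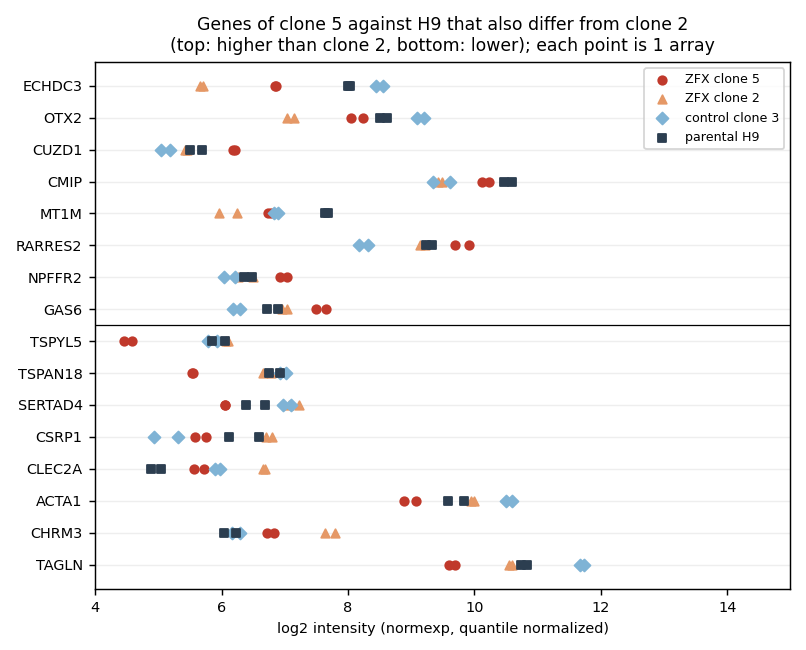
The log2 intensity on all 8 arrays is shown for the 16 genes that differed most between clone 5 and clone 2 among those called in clone 5 against H9, with the genes higher than in clone 2 above the line and the lower ones below it. Red circles are clone 5, orange triangles clone 2, blue diamonds clone 3 and dark squares H9; for TSPYL5, TSPAN18 and TAGLN the red circles lie left of all other points.

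Against clone 3, the clonal wild-type line, clone 5 differed in 3765 probes (18.9%) and 2675 genes (22.9%), with 1435 genes (12.3%) higher and 1240 (10.6%) lower in clone 5. EOMES was undetected in clone 5 and at 10.06 and 10.24 in clone 3, well above its 6.09 and 5.82 in H9. NODAL was at 7.0 and 7.25 in clone 5, 10.31 and 10.36 in clone 3 and 8.45 and 8.33 in H9. GLIPR1L1 was at 6.58 and 6.75 in clone 5, 11.82 and 11.78 in clone 3 and 9.24 and 9.25 in H9. H9 thus stood between the clones in these genes, and clone 5 was below each of the wild-type lines. SEPTIN5 was at 8.31 and 8.46 in clone 5, 6.09 and 6.01 in clone 3 and 6.26 and 6.15 in H9. ZFX was higher in clone 5 than in clone 3 by 1.11 (adjusted p = 1.99e-06), and TCEAL4 differed between them by 0.07 (adjusted p = 0.57).

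The size of a fold, and the order of the genes by it, differed with the handling of background. GLIPR1L1 had the lowest log2 fold on every scale tried, at -2.58 after normexp correction, -2.20 without background correction and -1.83 in the authors' processed values. SEPTIN5 was at 2.18, 1.72 and 1.32 on these scales, WDR72 at 1.74, 1.55 and 1.36, and ZFX at 1.27, 0.91 and 0.65. In the authors' values RAB17 was at 1.22, against 1.35 after normexp correction, while CLC was at 0.72 against 1.83 and KCNJ2 at 0.40 against 1.25. In the authors' values WDR72 led the rises, and BBS9, a subunit of a ciliary transport complex, and P3H2, a collagen prolyl hydroxylase, were among the 8 largest, at 0.88 and 0.81. BBS9 was at 9.53 and 9.33 in clone 5 and at 8.43 and 8.36 in H9 after normexp correction, a log2 fold of 1.04 (adjusted p = 1.31e-07), and was named after its values were seen, as was P3H2.

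**Figure D5:**
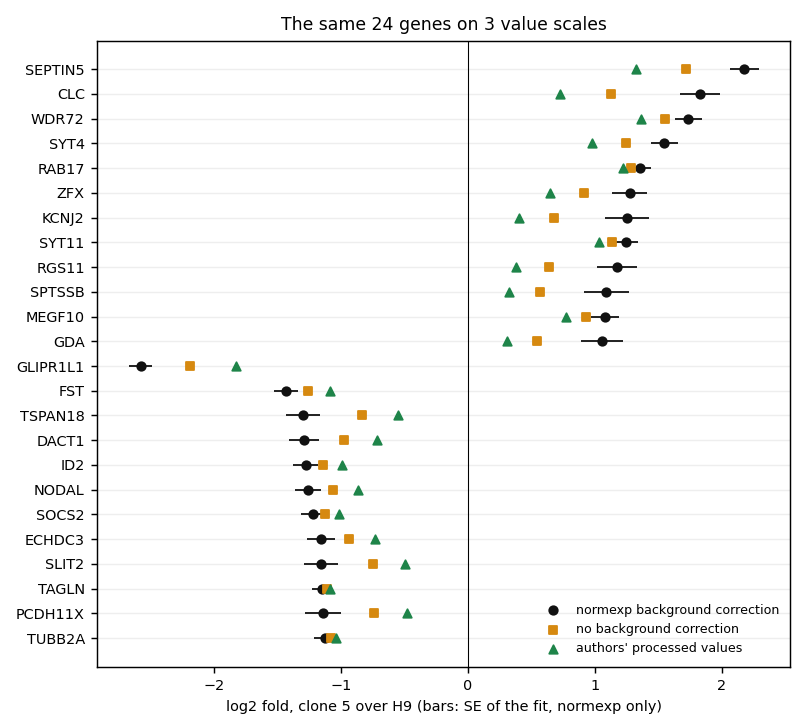
The log2 fold of clone 5 over H9 is shown for the 12 largest rises and 12 largest falls after normexp correction (black circles with the SE of the fit), without background correction (orange squares) and in the authors' processed values (green triangles). Signs are the same on all 3 scales, and KCNJ2, a dim probe, lies at 1.25 and 0.40 after normexp correction and in the authors' values, while RAB17, a bright one, lies at 1.35 and 1.22.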

How the data were processed

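The 8 arrays are Illumina bead arrays of 4 lines, with 2 arrays per line. The deposited tables hold linear probe intensities and a detection p-value for each array, as the authors deposited them; the submitters' processing notes name BeadStudio. The authors also deposited log2 values for each array, whose normalization is not given in the sources used here. Their medians are equal and they follow the scanner intensities of their own array in rank.

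Background was removed by normexp (limma's nec, offset 16), with the level of the negative controls taken from detection p-values. Quantile normalization over all 8 arrays and log2 followed. A probe stayed in if its detection p-value was under 0.05 on at least 2 of the 4 arrays. limma 3.58.1 (R 4.3.3) fitted 4 line means with a trend in intensity, and p-values were adjusted by Benjamini-Hochberg over the 19950 kept probes. A probe was called at an adjusted p under 0.05, and a gene was read from its probe with the highest mean over the 4 arrays. Each array detected 19177 to 20588 probes, and 2 arrays per line limit the precision. Simulated data had 200 of 19950 probes changed between clone 5 and H9. On these the fit called 60% of changes of 0.5 on the log2 scale and 98% of changes of 1, and 5.49% of its calls were false. The simulated noise was independent and normal, drawn with the fit's own variances and without the background and normalization steps. The false share therefore does not measure that of the real calls.

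The genes named were drawn from these rules, not all in full: the ZFX probe; the 12 largest rises and falls among called genes detected in both lines whose values did not overlap; the 5 largest bounds each way; up to 4 called members of each list, or the largest fold where none was called; and the 8 largest differences from clone 2 each way. Non-members of these rules are named as such or as members that did not pass. The members and lists were chosen with earlier results of these data known. Alternatives were median scaling, no background correction, an offset of 50, the authors' values, other filters, only 4 arrays, no trend, a replicate block, 1 probe per gene and each array left out. Replicate numbers name arrays only: the deviations of same-numbered clone 5 and H9 arrays had r = 0.0652.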

Additional observations from a re-analysis of the deposited data

Results flagged for a closer look

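For 16 genes called in clone 5 against H9, the difference from H9 was not the same in both ZFX lines by limma's test of clone 5 against clone 2, adjusted over all kept probes. Clone 5 was higher than clone 2 on the log2 scale by 1.168 in ECHDC3 (adjusted p = 7.61e-07), 1.046 in OTX2 (adjusted p = 8.67e-07), 0.7603 in CUZD1 (adjusted p = 0.00712) and 0.7153 in CMIP (adjusted p = 4.76e-05). The further genes above clone 2 were MT1M by 0.6542 (adjusted p = 0.00452), RARRES2 by 0.6151 (adjusted p = 0.000432), NPFFR2 by 0.5988 (adjusted p = 0.0152) and GAS6 by 0.5835 (adjusted p = 0.00885). Of these genes, ECHDC3, OTX2, CMIP and MT1M were lower in clone 5 than in H9, and lower still in clone 2. CUZD1, RARRES2, NPFFR2 and GAS6 were higher in clone 5 than in H9.

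Below clone 2 lay TSPYL5 at -1.57 (adjusted p = 1.93e-06), TSPAN18 at -1.18 (adjusted p = 8.06e-06), SERTAD4 at -1.098 (adjusted p = 2.01e-05) and CSRP1 at -1.092 (adjusted p = 0.000542). CLEC2A at -1.035 (adjusted p = 0.000296), ACTA1 at -0.9885 (adjusted p = 7.61e-07), CHRM3 at -0.9444 (adjusted p = 0.000121) and TAGLN at -0.9314 (adjusted p = 2.02e-07) followed. TSPYL5 was undetected in clone 5, so its value is fitted and no bound. CLEC2A and CHRM3 were higher in clone 5 than in H9, by 0.68 and 0.64, and higher still in clone 2. The calls against H9 that admitted these genes were lost under median scaling for CHRM3, CMIP, CSRP1, CUZD1, NPFFR2, OTX2, RARRES2 and SERTAD4. Some fits that left out an array also lost the calls against H9 of CLEC2A, CMIP, CSRP1, CUZD1, NPFFR2, OTX2 and SERTAD4.

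The difference from clone 2 was no longer called without either clone 5 replicate for CUZD1 (adjusted p = 0.0616 and 0.0514) and NPFFR2 (adjusted p = 0.127 and 0.0548), and without clone 5 replicate 2 for GAS6 (adjusted p = 0.107). Median scaling ended the calls of GAS6 (adjusted p = 0.14), MT1M (0.0689), NPFFR2 (0.103) and RARRES2 (0.119), and the fit without an intensity trend those of CMIP (adjusted p = 0.0535), GAS6 (0.0812), MT1M (0.0665), NPFFR2 (0.0961) and RARRES2 (0.0745).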

How the results depend on the processing

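The 1224 probes called in clone 5 against H9, 674 higher and 550 lower, became 262 (154 and 108) under median scaling, 804 (443 and 361) with only the 4 arrays of clone 5 and H9, and 425 (241 and 184) without the intensity trend. With 1 array left out the count ranged between 660 and 1065, with 341 to 613 higher and 302 to 452 lower. No background correction gave 1235, an offset of 50 gave 1204, the authors' values 1225 (1145 shared), no detection filter 856, detection on all 4 arrays 1208 and 1 probe per gene 1065. The 878 genes given above are another count, from p-values adjusted over all kept probes. Of the median-scaled calls 259 of 262 were among the 1224. Median scaling moved the median log2 fold of all probes to 0.00141, against -0.00235, and raised the median SE to 0.198, against 0.144.

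The 673 probes called against clone 2 became 48 under median scaling, 431 without the detection filter, 67 without the trend and 286 with either clone 5 array left out. Median scaling moved the median difference from clone 2 to 0.105, against 0.022. The 3765 called against clone 3 became 1487 under median scaling, and 2770 and 2526 with a clone 5 array left out. The replicate block gave 1253 probes against H9, 692 against clone 2 and 3833 against clone 3; the numbers are not known to pair the arrays. Of 136 called probes of named genes, median scaling lost 74, no trend 57, only 4 arrays 19, no filter 12, and leaving out 1 array 26 to 35; no direction was turned in any setting run. The cause was not tested. A slide block was not run, because the sources used here name no slides.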

Other observations

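For 5 genes, 2 called probes went in opposite directions in clone 5 against H9. PPP2R2B, a regulatory subunit of protein phosphatase 2A, had log2 folds of -0.33 and 0.74. YTHDC1, a nuclear reader of methylated adenosine in RNA, had 0.76 and -0.77, and CBLL1, an E3 ubiquitin ligase that is also part of the enzyme complex writing that mark, had 0.42 and -0.71. TMSB15B, a thymosin that binds actin, had -0.30 and 0.31, and NSL1, a kinetochore protein, had -0.38 and 0.67. Among the 377 called genes with more than 1 kept probe, 315 had a probe that did not pass.

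Some probes with large differences have no single gene symbol in the annotation. ILMN_1733658 was at 7.11 and 6.97 in clone 5 and at 5.49 and 5.52 in H9, a log2 fold of 1.53. ILMN_1826208 was at 8.22 and 8.14 in clone 5 and at 6.91 and 6.92 in H9, a log2 fold of 1.27. ILMN_2368713 was at 5.75 and 6.56 in clone 5 and at 7.43 and 7.54 in H9, a log2 fold of -1.33, with clone 5 arrays that stood well apart.

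By chromosome, the median log2 fold of clone 5 over H9 lay between -0.0253 on chromosome 13 and 0.0748 on chromosome 21, and the share of genes called between 5.17% on chromosome 18 and 10.2% on chromosomes 15 and 21. The X chromosome, which carries ZFX, had a median of 0.0231 with 22 genes higher and 21 lower of 450.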
